A study of Mus musculus with 6 samples.

Results

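The bone genes described here are 10 rows of a gene table of 18058 rows measured by RNA sequencing of mouse brainstem, taken by their gene symbols: Bglap, Bglap2, Ibsp, Spp1, Dmp1, Sparc, Alpl, Phex, Runx2 and Sp7. The set was selected on differences already seen between these same libraries, with Bglap at its head, so the levels of its members in the 2 genotypes are a description and carry no test. Whole brainstem of uninjected 1-month-old mice was compared between 3 wild type (WT) C57BL/6J animals and 3 animals labelled Rag1-/-, a line that lacks mature T and B cells, with 1 library per animal. The study made this comparison to look for transcripts that differ in the brainstem of a host that accepts human glioma cells. The study's methods name the Rag1-/- strain as B6.129S7-Rag1tm1Mom/J and report the use of both sexes, and the sex of each sequenced animal was not given in the sources used here.

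Bone matrix is laid down by osteoblasts, which secrete collagen together with a group of small acidic proteins that bind calcium, and which turn into osteocytes once they are buried in it. Runx2 and then Sp7 (osterix) switch on the osteoblast programme, and Bglap, which encodes osteocalcin, is among the last genes of that programme to come on. Several members are also used outside bone: osteopontin is made by neurons, macrophages and microglia, and Sparc is abundant in glia and endothelium of the brain.

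Osteocalcin is encoded in the mouse by neighbouring near-identical genes, which bears on how its reads can be counted. The coding sequences of Bglap and Bglap2 are shown because reads of these genes are hard to tell apart. They come from GENCODE vM21 on GRCm38 (the mm10 coordinates of the table), run 5′ to 3′ on the minus strand of chromosome 3, and span chr3:88383635-88384415 for Bglap and chr3:88377870-88378650 for Bglap2, each over 4 coding exons. Capitals mark the bases at which they differ.
Bglap: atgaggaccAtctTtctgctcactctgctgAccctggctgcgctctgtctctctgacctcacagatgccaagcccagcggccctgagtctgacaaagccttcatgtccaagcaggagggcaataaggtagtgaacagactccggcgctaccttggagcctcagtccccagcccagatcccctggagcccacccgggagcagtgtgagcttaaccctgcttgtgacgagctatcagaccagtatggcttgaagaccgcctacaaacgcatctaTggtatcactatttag
Bglap2: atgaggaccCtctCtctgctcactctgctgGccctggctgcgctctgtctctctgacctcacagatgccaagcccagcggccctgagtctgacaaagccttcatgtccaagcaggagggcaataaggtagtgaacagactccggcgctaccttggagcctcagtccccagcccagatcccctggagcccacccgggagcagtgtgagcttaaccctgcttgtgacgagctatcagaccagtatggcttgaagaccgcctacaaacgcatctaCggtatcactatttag
The coding sequences differed at 4 of 288 bases, an identity of 98.6%. Of the 391 stretches of 50 bases in the Bglap mRNA, 292 (74.7%) were also present in the Bglap2 mRNA. Reads from those stretches could be given to either gene, so the split between Bglap and Bglap2 is uncertain, and their sum is given beside the single values. Bglap3, whose coding sequence differs from that of Bglap at 13 bases, had no row in the table and was not analysed here.

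Promoters of the members encoding secreted mineral-binding proteins are shown because Runx2, itself in the set, is known to act on osteoblast genes through the core motif ACCACA. Each is the 250 bases before the gene's start in RefSeq (GRCm38.p6), 5′ to 3′ on the gene's strand, at chr3:88384467-88384716 (minus) for Bglap, chr5:104299037-104299286 (plus) for Ibsp, chr5:104434861-104435110 (plus) for Spp1, chr5:104202367-104202616 (plus) for Dmp1 and chr11:55420081-55420330 (minus) for Sparc. Capitals mark ACCACA, which was searched on both strands (TGTGGT on the other).
Bglap promoter: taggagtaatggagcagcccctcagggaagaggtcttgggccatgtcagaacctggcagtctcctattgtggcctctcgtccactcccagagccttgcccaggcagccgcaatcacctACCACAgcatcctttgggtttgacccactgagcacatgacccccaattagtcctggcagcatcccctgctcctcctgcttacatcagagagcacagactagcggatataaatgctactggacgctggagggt
Ibsp promoter: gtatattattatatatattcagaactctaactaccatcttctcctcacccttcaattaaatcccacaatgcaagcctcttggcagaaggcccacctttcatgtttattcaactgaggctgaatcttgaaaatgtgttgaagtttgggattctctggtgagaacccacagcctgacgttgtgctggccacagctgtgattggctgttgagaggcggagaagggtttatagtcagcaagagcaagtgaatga
Spp1 promoter: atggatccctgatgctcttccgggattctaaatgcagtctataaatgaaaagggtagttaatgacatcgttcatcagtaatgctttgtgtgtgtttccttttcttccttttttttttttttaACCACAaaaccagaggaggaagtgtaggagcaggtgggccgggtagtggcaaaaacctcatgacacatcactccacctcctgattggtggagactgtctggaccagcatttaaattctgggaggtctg
Dmp1 promoter: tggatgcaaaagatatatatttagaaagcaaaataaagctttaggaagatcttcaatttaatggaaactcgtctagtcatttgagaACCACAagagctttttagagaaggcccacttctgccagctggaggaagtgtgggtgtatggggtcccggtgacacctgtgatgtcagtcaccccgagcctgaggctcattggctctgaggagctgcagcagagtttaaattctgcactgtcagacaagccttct
Sparc promoter: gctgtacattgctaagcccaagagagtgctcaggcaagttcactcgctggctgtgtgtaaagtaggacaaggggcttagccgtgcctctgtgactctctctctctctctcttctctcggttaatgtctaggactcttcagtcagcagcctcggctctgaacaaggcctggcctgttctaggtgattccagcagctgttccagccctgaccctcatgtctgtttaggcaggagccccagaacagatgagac
The motif lay 132 bases before the start of Bglap, 128 before Spp1 and 164 before Dmp1, and these letters were not found in the windows of Ibsp and Sparc. Windows were found for 8 of the 10 members, and 4 held the motif, the fourth being Runx2 at 80 bases before a RefSeq start that lies 170 bases downstream of the gene's start in the table, so that this site falls inside the gene as deposited. The motif was present in 14% of all 32851 promoter windows of this length. A match of 6 letters is a description of the sequence and not a binding site.

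Values are CPM (counts per 1000000 reads) as deposited, and the depth of the libraries, estimated from the steps between low values, ran from 31600000 to 46400000 reads. A CPM corresponding to 3 reads, taken as the floor of detection, lay between 0.0646 and 0.095. WT 3 stood apart from WT 1 and WT 2 in sex-linked genes: Xist was at 172 and 177 CPM in WT 1 and WT 2 and at 2.93 CPM in WT 3, against 0.462 to 0.738 in the libraries labelled Rag1-/-. Ddx3y of the Y chromosome was at 0.283 and 0.215 CPM in WT 1 and WT 2 and at 45.2 CPM in WT 3. In the libraries labelled Rag1-/- it was at 53.4 to 56.2 CPM. By Xist and Ddx3y, WT 1 and WT 2 read as female and the other libraries as male. The genotype comparison is therefore partly a comparison of sex, between Xist-high and Xist-low libraries. Values for WT 3 alone are given below. A fit with a term for Xist marks WT 1 and WT 2, so its genotype difference sets the libraries labelled Rag1-/- against WT 3 alone. Rag1 was higher in the libraries labelled Rag1-/- (2.6, 4.02 and 2.9 CPM) than in WT (0.236, 0.388 and 0.115 CPM), with a log2 difference of 3.30 ± 0.31 (SE, limma adjusted p = 0.012). Which part of Rag1 is deleted in the line was not given in the sources used here, so these reads do not check the label, and every direction below rests on the labels. Lower RNA of a bone gene in bulk tissue cannot be told apart from fewer cells that make it.

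Bglap had the largest difference of the set on log2(CPM + 0.1), while Bglap2 had the larger one as a log2 ratio of means (-2.25 against -1.96). Bglap was at 2.48, 1.57 and 2.14 CPM in WT 1, 2 and 3 and at 0.154, 0.634 and 0.804 CPM in those labelled Rag1-/- 1, 2 and 3. The lowest WT library lay above the highest library labelled Rag1-/-. The highest value was 1.58 times the lowest in WT and 5.21 times the lowest among the libraries labelled Rag1-/-. The means were 2.07 ± 0.46 CPM in WT and 0.531 ± 0.337 CPM in libraries labelled Rag1-/- (SD, n = 3 each), the WT mean being 3.89 times the other, and the log2 difference was -1.95 ± 0.43 (SE) on log2(CPM + 0.1). These levels rest on few reads, from 73.1 to 105 per WT library and from 5.34 to 28.2 per library labelled Rag1-/-. These read equivalents were not whole numbers in every library.

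Bglap2 followed the same order of means with a wider spread. It was at 1.74, 0.196 and 1.12 CPM in WT 1, 2 and 3, with 0.163 and 0.477 CPM for the labels Rag1-/- 1 and 3, while the library labelled Rag1-/- 2 was listed at the minimum of the table, which stands for no reads. WT 2 fell inside the range of the libraries labelled Rag1-/-, so the groups overlapped. The means were 1.02 ± 0.776 and 0.214 ± 0.243 CPM (SD, n = 3 each), and the log2 difference was -1.82 ± 0.77 (SE). The difference was -1.16 without the library labelled Rag1-/- 2 and -2.60 without WT 2.

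Summing the pair avoids the split of reads between them. The sum was 4.22, 1.77 and 3.26 CPM in WT 1, 2 and 3 and 0.318, 0.634 and 1.28 CPM in those labelled Rag1-/- 1, 2 and 3, and the groups did not overlap. Bglap2 made up 41.2%, 11.1% and 34.3% of this sum in WT 1, 2 and 3. The WT mean of the sum, 3.09 ± 1.24 CPM, was 4.15 times the mean of the libraries labelled Rag1-/-, 0.744 ± 0.491 CPM (SD, n = 3 each). In reads the sum was 179, 82.2 and 113 in WT 1, 2 and 3 and 11, 20 and 45 in those labelled Rag1-/- 1, 2 and 3.

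**Figure D1:**
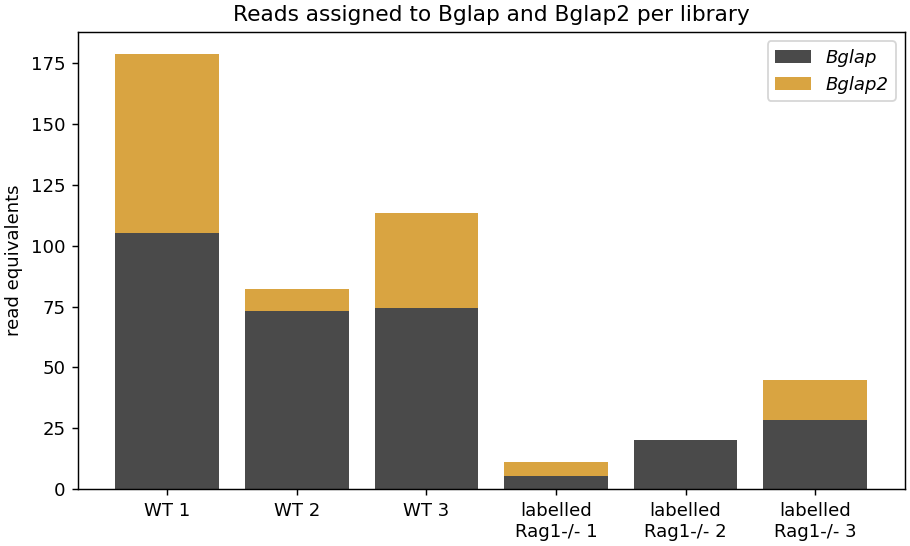
Reads assigned to Bglap (dark) and Bglap2 (yellow) in each library, stacked, computed as CPM divided by the CPM of 1 read in that library. The 3 WT libraries reach 82.2 to 179 reads and the 3 libraries labelled Rag1-/- reach 11 to 45, and the share of Bglap2 varies within both groups.

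Ibsp encodes bone sialoprotein, which starts crystal growth in new bone. It was at 0.472, 0.474 and 0.402 CPM in WT 1, 2 and 3 and at 0.0867, 0.0951 and 0.199 CPM in those labelled Rag1-/- 1, 2 and 3. WT libraries were close to each other and above every library labelled Rag1-/-. The means were 0.449 ± 0.0407 and 0.127 ± 0.0628 CPM (SD, n = 3 each), and the log2 difference was -1.31 ± 0.27 (SE). Ibsp was barely detected: WT 1, 2 and 3 held 20, 22 and 14 reads, and those labelled Rag1-/- 1, 2 and 3 held 3, 3 and 7, the lower value being the floor itself. At this depth the size of the difference depended on the pseudocount, from -0.36 with 1 CPM added to -1.83 with 0.01 CPM added.

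Dmp1 encodes a phosphoprotein of osteocytes and dentin that nucleates mineral. It was at 5.07, 6.61 and 5.83 CPM in WT 1, 2 and 3 and at 4.33, 3.2 and 5.07 CPM in those labelled Rag1-/- 1, 2 and 3. WT 1 and the library labelled Rag1-/- 3 had the same value to the digits given, so the groups only just failed to overlap. The log2 difference was -0.48 ± 0.17 (SE), and it was -0.30 without the library labelled Rag1-/- 2 and -0.63 without the library labelled Rag1-/- 3. When libraries were rescaled by the median of gene ratios, WT 1 (4.98 CPM) fell below the library labelled Rag1-/- 3 (5.14 CPM) and the groups overlapped.

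Spp1 encodes osteopontin, a secreted ligand of integrins and Cd44. It was at 50.5, 89.2 and 58.7 CPM in WT 1, 2 and 3 and at 57.4, 30.4 and 68 CPM in those labelled Rag1-/- 1, 2 and 3. The groups overlapped, and the extremes of both came from WT 2 and the library labelled Rag1-/- 2. The log2 difference was -0.39 ± 0.30 (SE), and it was -0.039 without the library labelled Rag1-/- 2. The list of 8 markers of motor, monoamine and caudal brainstem neurons also varied between libraries, summing to 96.3, 132 and 74.6 CPM in WT 1, 2 and 3 and to 158, 74 and 114 CPM in those labelled Rag1-/- 1, 2 and 3. Its members did not vary alike. Slc6a5, the glycine transporter of glycinergic neurons, had its highest value in WT 2 (40.9 CPM) and its lowest in the library labelled Rag1-/- 2 (8.3 CPM), as Spp1 did. Tph2, the serotonin synthesis enzyme and the most abundant of the list, had its highest in the library labelled Rag1-/- 1 (58 CPM) and its lowest in WT 3 (10 CPM), unlike Spp1. The part of these markers in the spread of Spp1 was not tested.

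Sparc encodes osteonectin, which binds collagen and calcium, and was the most abundant member. It was at 1400, 1480 and 1490 CPM in WT 1, 2 and 3 and at 1540, 1560 and 1360 CPM in those labelled Rag1-/- 1, 2 and 3. The libraries labelled Rag1-/- lay on both sides of the WT range, and the means differed by less than the spread between replicates (1460 ± 47.7 and 1490 ± 111 CPM, SD, n = 3 each). The log2 difference of 0.027 ± 0.065 (SE) turned to -0.0075 with a term for Xist.

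The enzymes of mineral and phosphate handling were Alpl and Phex. Alpl encodes tissue-nonspecific alkaline phosphatase, which removes pyrophosphate, an inhibitor of mineral growth. It was at 9.42, 9.43 and 9.17 CPM in WT 1, 2 and 3 and at 8.23, 9.47 and 9.08 CPM in those labelled Rag1-/- 1, 2 and 3. The groups overlapped, and the log2 difference was -0.066 ± 0.079 (SE).

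Phex encodes an endopeptidase of osteoblasts and osteocytes that keeps the phosphate-wasting hormone FGF23 in check. It was at 0.496, 0.517 and 0.632 CPM in WT 1, 2 and 3 and at 0.347, 0.444 and 0.285 CPM in those labelled Rag1-/- 1, 2 and 3. Every WT library was above every library labelled Rag1-/-, on 21 to 24 reads against 10 to 14. The log2 difference was -0.51 ± 0.23 (SE). Phex lies on the X chromosome, and WT 3, the Xist-low WT library, had the highest value of the 6.

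The transcription factors showed no such gap. Runx2 was at 1.6, 1.55 and 1.32 CPM in WT 1, 2 and 3 and at 1.36, 1.65 and 1.25 CPM in those labelled Rag1-/- 1, 2 and 3. Sp7 was at 4.65, 4.03 and 3.48 CPM in WT 1, 2 and 3 and at 3.44, 3.71 and 4.81 CPM in those labelled Rag1-/- 1, 2 and 3. For both, the groups overlapped, with log2 differences of -0.073 ± 0.16 for Runx2 and -0.028 ± 0.16 for Sp7 (SE), whose sign changed under other scalings (0.027 for Runx2 and 0.042 for Sp7 with quantile normalization).

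**Figure D2:**
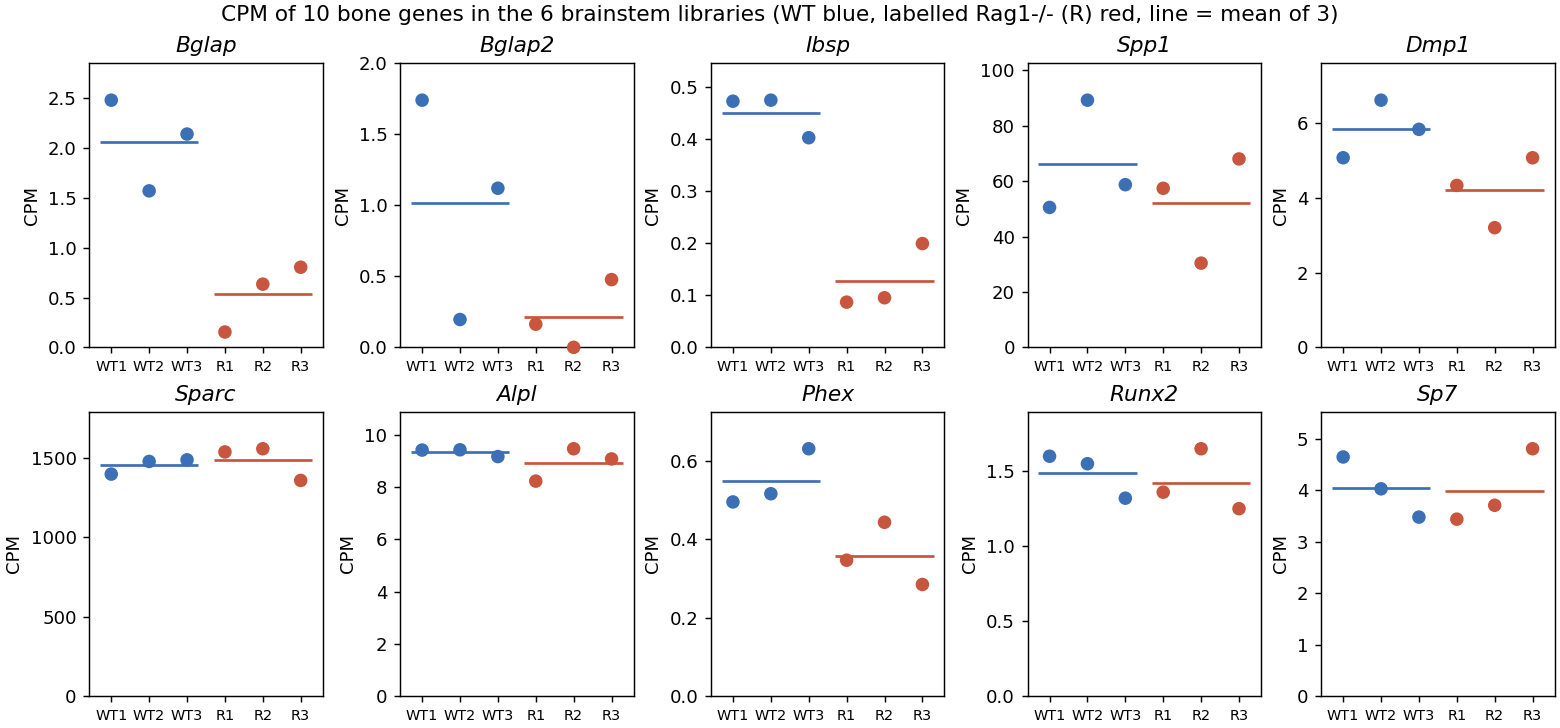
CPM of each of the 10 bone genes (vertical axis, from 0, a scale per gene) in the 3 WT libraries (blue) and the 3 libraries labelled Rag1-/- (red, R1 to R3), with a line at each mean. Bglap and Ibsp show the widest gaps between the groups, Dmp1 and Phex narrower ones, and the points of the other 6 genes overlap.

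All 10 members passed the filter of a mean of at least 0.1 CPM, which 16762 genes passed. In 4 of the 10 (Bglap, Ibsp, Dmp1 and Phex) every library labelled Rag1-/- was below every WT library, in 0 every one was above, and in 6 the groups overlapped. Among all genes tested, 14.4% were lower without overlap and 3.98% were higher without overlap, and since the members were selected on this contrast nothing is read from their count. After rescaling by the median of gene ratios, 3 members were lower without overlap, beside 7.33% of all genes. The median log2 difference of the members was -0.43, with 9 of 10 below 0, while over all genes tested it was -0.051, with 67.7% below 0. WT 3 alone, which like the libraries labelled Rag1-/- was low in Xist, lay above all 3 of them for 5 members (Bglap, Bglap2, Ibsp, Dmp1 and Phex) and below all 3 for 0, beside 41.9% and 20.8% of all genes, and nothing is read from this count either. In WT 3, Bglap was 2.66 times and Ibsp 2.02 times the highest library labelled Rag1-/-.

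**Figure D3:**
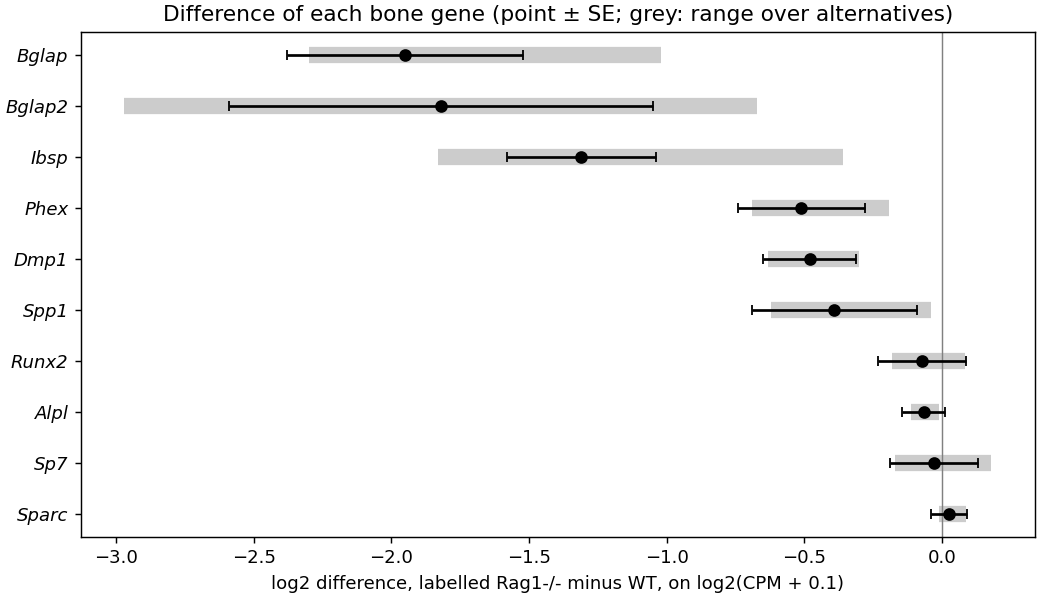
Log2 difference (labelled Rag1-/- minus WT, on log2(CPM + 0.1)) of each bone gene, point with SE, over grey bars that span its values under the alternative processing settings. Bglap, Bglap2 and Ibsp lie farthest below 0 with the longest bars, and the bars of Runx2, Sp7 and Sparc cross 0.

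Per kilobase of median transcript length, the mean level over the 6 libraries fell from Sparc (1160 CPM per kilobase) to Spp1 (41.9), Alpl (15.1), Bglap (3.28), Dmp1 (1.82), Sp7 (1.4), Bglap2 (1.31), Runx2 (0.906), Ibsp (0.139) and Phex (0.126). Neighbours in this order from Bglap to Runx2, and Ibsp and Phex, had overlapping ranges over the libraries, so their order is not resolved. Sparc, Spp1 and Alpl each stood clear of the next, as did Runx2 of Ibsp. With the longest transcript in place of the median, Sp7 and Bglap2 changed places, and Sparc came to 640, Alpl to 3.62, Runx2 to 0.225 and Phex to 0.0724 CPM per kilobase. The ranges of Alpl and Bglap, and of Runx2 and Ibsp, then overlapped, while Sparc and Spp1 still stood clear of the next.

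The genes whose pattern over the 6 libraries was most like that of Bglap, by the root mean square (RMS) difference of centred log2(CPM + 0.1), were Ifi209 (0.50), Dlx4os (0.56), Ibsp (0.59), Ifit1 (0.60) and Cxcl10 (0.62). Those most like Ibsp were Pisd-ps1 (0.17), Pla2g4b (0.23), Usp18 (0.23), Ifit1 (0.27) and B430306N03Rik (0.28). Thus Ibsp was among the nearest genes to Bglap, while Bglap was not among the 5 nearest to Ibsp. Spp1 had closer neighbours, with Vwa7 (0.10) and Cox8b (0.11) nearest, and its list was added after its values were seen. These likenesses over 6 libraries are descriptions only.

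Other genes of bone, in 8 lists with 90 genes that hold none of the members, were tested across the whole table with limma. Of these, 84 were in the table and 79 were tested. With adjustment over all genes tested, 0 of 79 passed an adjusted p of 0.05 (smallest 0.216), a threshold that 0.0477% of all genes passed. At an unadjusted p of 0.05, 11 of 79 (13.9%) were lower and 2 (2.53%) were higher in the libraries labelled Rag1-/-, beside 9.29% and 2.27% of all genes. The direction of calls depended on scaling: over all genes, 80.4% of the calls at this threshold were lower with CPM, 44.7% after median-of-ratios rescaling and 42.8% after quantile normalization. For the bone lists, 7 of 79 (8.86%) were lower and 3 (3.8%) higher after median-of-ratios rescaling, beside 4.09% and 5.07% of all genes. After quantile normalization 6 of 79 (7.59%) were lower and 3 (3.8%) higher, beside 3.82% and 5.1% of all genes. The median log2 difference of the 79 was -0.091, with 60 below 0, beside -0.051 over all genes, of which 67.7% were below 0. Without overlap, 13 of 79 were lower and 1 was higher, beside 14.4% and 3.98% of all genes.

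Among the matrix and mineralisation genes, 2 of 18 were lower at this threshold and 0 higher. Col1a1, a chain of type I collagen, the main protein of bone, averaged 29.9 ± 7.5 CPM in WT (SD, n = 3) against 22.2 ± 4.47 CPM under the label Rag1-/- (log2 difference -0.42 ± 0.18, SE, limma adjusted p = 0.43). Its groups overlapped, and it kept the call in 6 of 15 alternatives. It was not called after either rescaling, without the trend, with no filter or a filter at 1 CPM, or with a pseudocount of 1, nor without WT 3 (log2 difference -0.23), the library labelled Rag1-/- 1 (-0.27) or the library labelled Rag1-/- 3 (-0.43). Its partner chain Col1a2, at 45.7 ± 9.23 and 43 ± 3.53 CPM, was not called (limma adjusted p = 0.845), nor was Mgp, a calcification inhibitor related to osteocalcin (limma adjusted p = 0.828). The other call was the phosphate transporter Slc20a2, with means of 70.1 and 62.9 CPM (limma adjusted p = 0.351), which kept the call in 15 of 15 alternatives. Mepe had no row and was not analysed here.

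Of the transcription factors and signals of osteoblasts, 3 of 19 were lower and 1 higher. Tnfrsf11b, osteoprotegerin, the decoy receptor that restrains osteoclasts, averaged 2.37 ± 0.379 CPM in WT (SD, n = 3) against 1.61 ± 0.0182 CPM under the label Rag1-/- (log2 difference -0.52 ± 0.15, SE, limma adjusted p = 0.34), and kept the call in 15 of 15 alternatives. Runx1, a relative of Runx2 best known in blood formation, was at 1.37 ± 0.0961 and 0.99 ± 0.0911 CPM (limma adjusted p = 0.382). Its call was lost without WT 2 (log2 difference -0.43), WT 3 (-0.38) or the library labelled Rag1-/- 1 (-0.37). Lrp6, a Wnt co-receptor, was at 53 ± 2.01 and 47.3 ± 0.721 CPM (limma adjusted p = 0.335). Bmp4, a bone morphogenetic protein, was higher under the label Rag1-/-, with means of 5.36 ± 0.478 CPM against 4.34 ± 0.55 CPM in WT (limma adjusted p = 0.403). Its call was lost without WT 1 (log2 difference 0.26), WT 2 (0.25), the library labelled Rag1-/- 2 (0.32) or the library labelled Rag1-/- 3 (0.23), and with a term for Xist, under which the difference was 0.10. That of Lrp6 was kept in 14 of 15 alternatives and lost with the term for Xist, and that of Runx1 also with quantile normalization.

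The receptors and modifying enzymes of the members were tested in the same way. Cd44, a receptor for osteopontin, was at 4.44, 4.95 and 6.38 CPM in WT 1, 2 and 3 and at 3.21, 2.82 and 3.02 CPM in those labelled Rag1-/- 1, 2 and 3, without overlap. Its log2 difference of -0.77 ± 0.14 (SE) had the smallest p of the bone lists (limma adjusted p = 0.216). Over the alternatives its limma adjusted p reached 0.64. With a term for Xist, which leaves WT 3 as the only WT library compared, the log2 difference of Cd44 was -1.06. Gpr158, a neuronal receptor of osteocalcin, was at 110, 111 and 113 CPM in WT 1, 2 and 3 and at 94.5, 98.7 and 98.5 CPM in those labelled Rag1-/- 1, 2 and 3, a small difference with little spread (log2 difference -0.19 ± 0.039, SE, limma adjusted p = 0.238). Ggcx, the carboxylase that modifies osteocalcin with vitamin K, was not called (limma adjusted p = 0.628). Vkorc1, which recycles the vitamin, averaged 18.3 ± 0.421 and 16.6 ± 0.591 CPM (limma adjusted p = 0.411) and was lower at the unadjusted threshold. In the osteopontin receptor list 2 of 7 were lower, the other being the integrin subunit Itgb5 (limma adjusted p = 0.395), in the carboxylation and receptor list 2 of 5, and in the SPARC family 1 of 7, Spock1 (limma adjusted p = 0.408). These 3 lists had 0 higher calls in this fit. Itgb1 of the osteopontin receptor list was called higher after median-of-ratios rescaling and after quantile normalization. Spock2 of the SPARC family was called lower after quantile normalization. Cd44 and Gpr158 kept their calls in 15 of 15 alternatives, while Vkorc1, Itgb5 and Spock1 kept theirs in 7, 8 and 7 of 15. These 3 calls were each lost after median-of-ratios rescaling, quantile normalization and with the replicate block, those of Vkorc1 and Spock1 also with a term for Xist, and those of Itgb5 and Spock1 without the trend. The call of Vkorc1 was lost without WT 1 (log2 difference -0.14), WT 2 (-0.13), or the libraries labelled Rag1-/- 2 (-0.11) or 3 (-0.15). That of Itgb5 was lost without WT 3 (-0.10), or the libraries labelled Rag1-/- 2 (-0.16) or 3 (-0.14), and that of Spock1 without WT 1 (-0.084), or the libraries labelled Rag1-/- 1 (-0.11) or 2 (-0.12).

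Of 13 osteoclast genes 1 was lower and 1 higher, beside 9.29% and 2.27% of all genes, and 0 passed the adjusted threshold. Acp5, the tartrate-resistant phosphatase that marks osteoclasts, averaged 0.831 ± 0.151 CPM in WT (SD, n = 3) against 0.526 ± 0.111 CPM under the label Rag1-/- (log2 difference -0.58 ± 0.23, SE, limma adjusted p = 0.399). Its call was lost without WT 2 (-0.53), WT 3 (-0.48) or the library labelled Rag1-/- 3 (-0.42), and with quantile normalization or the replicate block. Ctsk, cathepsin K, the collagen-degrading protease of osteoclasts, was higher under the label Rag1-/-, with means of 4.96 ± 0.213 CPM against 4.1 ± 0.15 CPM in WT (log2 difference 0.27 ± 0.094, SE, limma adjusted p = 0.373). Its call was lost without the library labelled Rag1-/- 1 (0.24). The osteocyte list (3 genes tested) and the cartilage list (7 genes tested) had none.

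**Figure D4:**
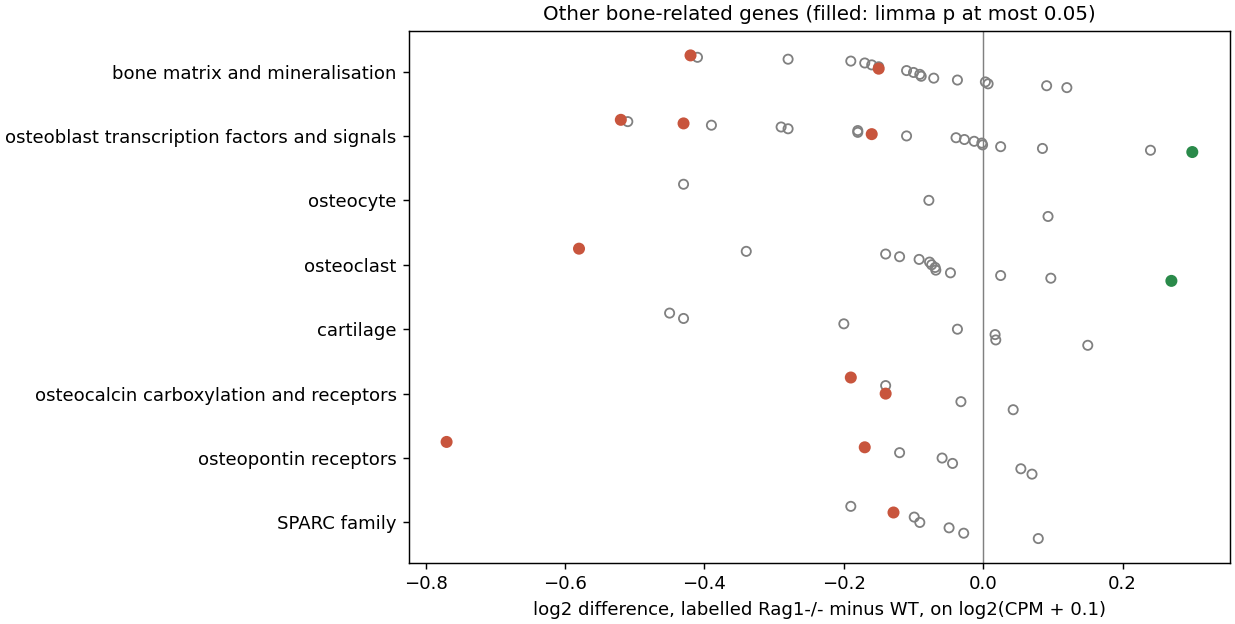
Log2 difference (labelled Rag1-/- minus WT, on log2(CPM + 0.1)) of the 79 tested genes of the 8 other bone lists, a point per gene, filled where the unadjusted limma p was at most 0.05 (red lower, green higher). The 11 red points are spread over 6 lists, and the 2 green points are Bmp4 and Ctsk.

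Markers of tissue next to the brain were read in the same libraries, since whole brainstem can carry bone marrow, blood, meninges or muscle. The marrow granulocyte list, 11 of 12 genes in the table, summed to 6.49, 14.7 and 21.2 CPM in WT 1, 2 and 3 and to 4.07, 5.23 and 7.55 CPM in those labelled Rag1-/- 1, 2 and 3. Of its 10 tested genes 6 were lower at the unadjusted limma threshold, beside 9.29% of all genes, and 0 passed the adjusted one. The median log2 difference of the 10 was -1.17, and the summed groups overlapped. Their order within WT was different, since WT 1 had the most Bglap and the least granulocyte signal, below the library labelled Rag1-/- 3. The most abundant of them was S100a9, at 1.98, 4.61 and 6.96 CPM in WT 1, 2 and 3 and from 0.982 to 1.94 CPM in libraries labelled Rag1-/-. Mpo, made by marrow precursors, was at 0.165, 0.388 and 0.575 CPM in WT 1, 2 and 3 and under the floor in all 3 libraries labelled Rag1-/-. Prtn3, also a gene of marrow precursors, was at 0.732, 0.603 and 0.661 CPM in WT 1, 2 and 3 and at 0.809, 0.475 and 0.598 CPM in those labelled Rag1-/- 1, 2 and 3, with overlap.

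Red blood cell markers summed to 647, 997 and 1880 CPM in WT 1, 2 and 3 and to between 897 and 1440 CPM in libraries labelled Rag1-/-, so WT 1 had the least blood signal and the most Bglap. Meningeal fibroblast markers overlapped, from 180 to 253 CPM in WT and from 149 to 234 CPM in libraries labelled Rag1-/-. Of these 8 markers 7 lay below 0, beside 67.7% of all genes, with a median log2 difference of -0.30. At the unadjusted threshold 2, Slc13a4 and Dcn, were lower, beside 9.29% of all genes. Skeletal muscle markers reached 10.9 CPM in WT 3 but only 3.28 to 4.35 CPM elsewhere, and 1 gene, Mybpc1, made up 6.38 CPM of the sum in WT 3 against 0.318 to 1.04 CPM in the rest. Microglia (248 to 277 CPM in all) and endothelial sums (188 to 226 CPM) overlapped, while the oligodendrocyte sum was higher in libraries labelled Rag1-/- (21300 to 22800 CPM) than in WT (16300 to 19300 CPM). Astrocyte sums were 2570 to 2720 CPM in WT and 2750 to 2870 CPM in libraries labelled Rag1-/-. Without Slc1a2, the most abundant of the list, they were 939, 1020 and 1160 CPM in WT 1, 2 and 3. In those labelled Rag1-/- 1, 2 and 3 they were then 1020, 1070 and 1020 CPM, with overlap. Neuron sums ran from 2740 to 3000 CPM with overlap, so the labelled brain tissue was present in every library. The part of these other tissues in the levels of the bone genes was not tested.

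**Figure D5:**
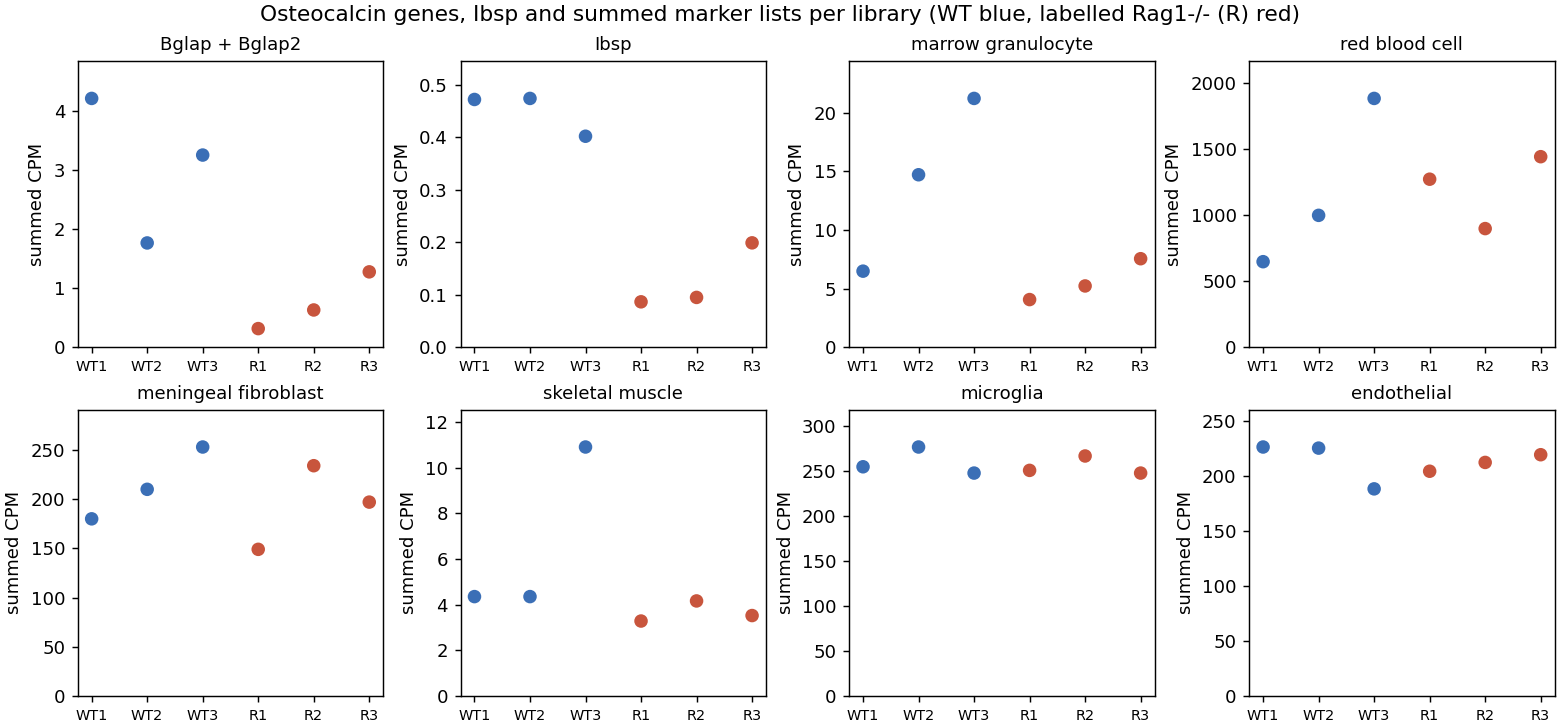
Summed CPM per library (vertical axes from 0, a scale per panel) of Bglap with Bglap2, of Ibsp and of 6 lists of cell type markers, WT in blue and labelled Rag1-/- in red. The groups do not overlap for Bglap with Bglap2 or for Ibsp and overlap for granulocytes, where WT 1 (6.49 CPM) lies below the library labelled Rag1-/- 3 (7.55 CPM).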

How the data were processed

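Total RNA of snap-frozen brainstem from 3 animals per genotype was sequenced on an Illumina HiSeq. The authors aligned reads to mm10 with STAR 2.5.3a, used Partek Flow to count reads per RefSeq gene, and deposited them as CPM, with an offset of 0.0001 that is the minimum of each column. Whole reads were not recovered for all values (85.2% to 86.7% of low values came out whole within 0.1 read), so no count test was run. Strand handling and treatment of reads that match several genes were not given in the sources used here. The table held 79.1% to 80.4% of each library's CPM total.

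Differences were fitted on log2(CPM + 0.1) over the 16762 genes whose mean reached 0.1 CPM, with limma 3.58.1 (trend) in R 4.3.3 and Benjamini-Hochberg adjustment, and tested on simulated data. The SD is over animals. A fold on this scale understates changes of low genes. Read equivalents divide CPM by the CPM of 1 read. The members and the gene lists were chosen with earlier results of these data known. Named were all members, up to 4 genes called at p of 0.05 with the smallest p per bone list and 10 further genes set by name, up to 3 of the most abundant markers per list with Mpo, and 5 pattern neighbours of Bglap and Ibsp. Prtn3 and Slc13a4 were named after their values were seen. The pattern neighbours of Dmp1 are not reported here. Replicate numbers were used to pair the libraries only in the replicate block. Alternatives varied the pseudocount, filter, scaling, trend, replicate block, a term for Xist and each library left out.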

Additional observations from a re-analysis of the deposited data

How the results depend on the processing

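The differences of Bglap, Bglap2, Ibsp, Spp1, Dmp1, Alpl and Phex kept their sign under every alternative run for them, and Bglap ranged from -2.30 to -1.02. With a pseudocount of 1 the log2 difference was -1.02 for Bglap, -0.36 for Ibsp and -0.19 for Phex. Bglap2 ranged from -0.67 with a pseudocount of 1 to -2.97 with 0.01, where it exceeded Bglap (-2.21). Ibsp came to -1.83 with a pseudocount of 0.01 and to -1.82 as a ratio of means. Signs near 0 turned. With a term for Xist, which leaves WT 3 as the only WT library compared, Sparc came to -0.0075, Runx2 to 0.084 and Sp7 to 0.18. With quantile normalization Runx2 came to 0.027 and Sp7 to 0.042, and with median-of-ratios rescaling Sp7 came to 0.016. Leaving out each library in turn gave -0.011 to 0.09 for Sparc, -0.18 to 0.0066 for Runx2 and -0.17 to 0.074 for Sp7. The cause was not tested. A filter at 1 CPM left no value for Bglap2, Ibsp and Phex.

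Genes past an adjusted p of 0.05 numbered 8 with limma, 4 with a filter at 1 CPM, no filter or a pseudocount of 0.01, 2 without trend, 5 with quantile normalization, 134 with a term for Xist, and 2 (without the library labelled Rag1-/- 1 or 3) to 24 (without WT 3) when libraries were left out. At an unadjusted p of 0.05 there were 1938 (1558 lower), with 1535 (686 lower) after median-of-ratios rescaling, 1495 (640 lower) after quantile normalization and 1113 (without the library labelled Rag1-/- 1) to 2025 with libraries left out. Counts under the term for Xist are not given, since WT 3 is then the only WT library compared with those labelled Rag1-/-. Of the other bone genes 0 passed the adjusted threshold under the remaining alternatives. With the replicate block, 3 genes passed the adjusted threshold. At the unadjusted one 9 other bone genes passed, against 13, with 8.86% lower and 2.53% higher, beside 6.59% and 1.52% of all genes. Same-numbered libraries correlated at 0.0926, -0.22 and -0.0183, and differently numbered ones at -0.184 to 0.182. This check showed no pairing by number and cannot exclude a shared batch. Depth limits Ibsp, Phex and Bglap2, with at most 22, 24 and 73.7 reads in any library.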
